A study of Mus musculus with 4 samples.

Results

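The Bcl2 family genes examined here were the 10 with the symbols Bcl2, Bcl2l1, Mcl1, Bax, Bak1, Bcl2l11, Bbc3, Pmaip1, Bmf and Bid. They were taken by symbol, without regard to their values, from expression tables of 28250 genes each, which give their NCBI Gene IDs as 12043 (Bcl2), 12048 (Bcl2l1), 17210 (Mcl1), 12028 (Bax), 12018 (Bak1), 12125 (Bcl2l11), 170770 (Bbc3), 58801 (Pmaip1), 171543 (Bmf) and 12122 (Bid). Expression was measured by RNA-seq of poly(A)-selected RNA from TBV2 cells, a feeder-dependent 129/SvP mouse embryonic stem cell (ESC) line, treated in the presence of LIF. In 2 libraries the cells had received solvent for 24 h, and in 2 libraries they had received 5 µM MS-275, a benzamide inhibitor of class I histone deacetylases, for 24 h. The labels do not say whether the 2 libraries of a condition came from separate cultures, so the p-values measure only the spread between these libraries, which may be technical. All libraries came from 1 line. The sources do not say whether feeder cells were present in these cultures, and they describe no step that would have removed them.

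The Bcl2 family decides whether a cell commits to death through its mitochondria. Anti-apoptotic members (Bcl2, Bcl2l1 or Bcl-xL, Mcl1) bind and restrain their pro-apoptotic relatives. The effectors Bax and Bak1 form pores in the outer mitochondrial membrane, and the BH3-only proteins (Bcl2l11 or Bim, Bbc3 or Puma, Pmaip1 or Noxa, Bmf, Bid) sense stress and either block the protectors or activate the effectors. Mcl1 is a short-lived protein that Noxa binds with preference, and mouse ESC are known for a low threshold to mitochondrial apoptosis.

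Pmaip1 showed the largest difference of the 10. Its mean exon density (distinct alignment positions per kb of exon and per 1000000 exon positions) was 35.1 with solvent and 72.1 with MS-275. Coding exon bases, noncoding exon bases and introns each had more positions with MS-275 in both replicate pairs, and the difference over the exons passed the test (limma-voom, adjusted p = 0.0196) but on the deposited values only when libraries were compared within replicate numbers. A smaller difference in the same direction was found for Bcl2l11 and one in the opposite direction for Bid, and each passed the test only under some of the settings. For the protectors Bcl2, Bcl2l1 and Mcl1 and for the effectors Bax and Bak1, no test on values or exon positions found a difference between the conditions.

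Each gene was read in 2 ways. The first was the expression value deposited by the authors, a normalized signal per gene that followed alignment density per kb of exon. The second was the number of distinct alignment positions (a mapped place and its strand, counted once) over the exons of the gene, given as found, before scaling to the library. Both come from the same sequencing of the same libraries and are not independent of each other. Depth differed between libraries, from 9785619 alignments (solvent replicate 2) to 23467935 (solvent replicate 1), with 20008841 and 10915650 in the 2 MS-275 libraries. Repeated positions made up 53.2% and 54.4% of the alignments in the replicate 1 files and 0% in the replicate 2 files, which is why positions were counted once. Counting once sets a ceiling, so levels of abundant genes can be compressed in this readout. The size of this effect was not measured. Distinct positions in exons ran from 5608253 to 7359474 per library. The value tables of both replicate 1 libraries are headed as old, whereas the alignments deposited with these libraries are named new, and each library's values tracked the alignments of its fellow replicate more closely than its own (for solvent replicate 1, r = 0.917 against 0.876 across 10815 genes, which are not independent replicates). A replicate number may therefore not name the same library in values and in positions, but the condition does, and every comparison below is between conditions within 1 readout. Of the ESC markers, 12 of 12, among them Pou5f1 and Nanog, were listed at 0.001 or more in every library. The feeder fibroblast markers other than Lum also reached this floor in every library, so it does not tell the cell types apart. The 14 feeder fibroblast markers summed to 0.474 and 0.583 in the solvent libraries and to 0.850 and 1.01 in the MS-275 libraries, with Lum under 0.001 in solvent replicate 1. The ESC markers summed higher than these in every library, to 7.05 and 27.3 with solvent and 5.96 and 16.5 with MS-275.

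Among the members, Mcl1 had the highest level per length and Bcl2 the lowest. As exon density, the number of distinct exon positions per kb of exon and per 1000000 exon positions of the library, Mcl1 stood at 115 and 107 in the solvent libraries and at 136 and 103 in the MS-275 libraries. Bax followed at 90.9 and 68.7 with solvent and 91.9 and 56.2 with MS-275. Below these came Pmaip1, Bak1, Bid, Bmf, Bbc3, Bcl2l11, Bcl2l1 and Bcl2, and the order of the group means was the same in both conditions. With solvent, the libraries of neighbours in that order overlapped for Bak1 and Bid, for Bmf and Bbc3, and for Bbc3 and Bcl2l11, so these pairs did not differ beyond their spread. Pmaip1 stood at 37.1 and 33.2 with solvent, apart from Bax, and at 85.1 and 59.1 with MS-275, where it overlapped with Bax. The other neighbours that overlapped with MS-275 were Bid and Bmf, Bmf and Bbc3, and Bbc3 and Bcl2l11.

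The make-up of the family shifted accordingly. Pmaip1 supplied 10.1% and 10.4% of the summed exon density of the 10 members in the solvent libraries and 19.9% and 18.5% in the MS-275 libraries. The share of Mcl1 was 31.4% and 33.5% with solvent and 31.7% and 32.1% with MS-275, ranges that overlapped. Bax held 24.8% and 21.5% with solvent and 21.4% and 17.6% with MS-275, so both MS-275 libraries were below both solvent libraries. Shares add up to a whole, and a larger share of 1 member lowers those of the others. Counting each position once can also hold down the shares of the most abundant members, Mcl1 above all. Shares of the deposited values were not computed. With 2 libraries against 2, an exact permutation test of such a single value cannot give a two-sided p below 0.333, and none is given.

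**Figure D1:**
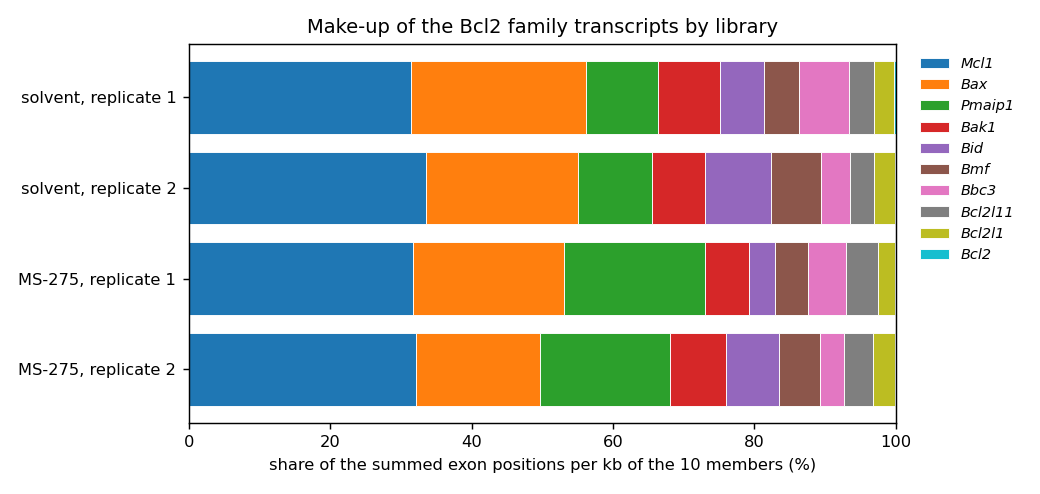
Share of each of the 10 Bcl2 family members in their summed distinct exon positions per kb, in percent, with 1 bar per library. The Pmaip1 segment spans 10.1% and 10.4% in the solvent libraries and 19.9% and 18.5% in the MS-275 libraries, while the Mcl1 segment stays between 31.4% and 33.5% in all 4. Each position was counted once, which can compress the share of an abundant member such as Mcl1.

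The conditions were first compared on the deposited values of all members together. All 10 members passed the filter on low values (0.001 or more in at least 2 libraries). By limma on log2(value + 0.005) with Benjamini-Hochberg adjustment over 20336 genes, 0 members were higher and 0 were lower at an adjusted p below 0.05, and 1 member, Pmaip1, had an unadjusted p below that threshold. That fit called 0.00492% of all genes higher and 0% lower. A fit with the replicate number as a block compares MS-275 with solvent within libraries of the same number, which the table headers tie to a shared name. With that block, 1 member was higher (Pmaip1) and 0 were lower, where 21.0% of all genes were higher and 6.46% lower. After median-ratio scaling the block fit called Pmaip1 higher and Bid lower, where 20.8% and 9.08% of all genes were, and after quantile normalization it called the same 2 members, where 14.4% were higher and 14.6% lower. Both MS-275 libraries lay above both solvent libraries for 2 members, Pmaip1 and Bcl2l11, a pattern held by 32.3% of all genes, and below them for 0 members, against 12.0% of all genes. Within replicate pairs, 3 members (Bcl2, Bcl2l11, Pmaip1) were higher in both pairs and 4 (Bcl2l1, Bax, Bbc3, Bid) lower in both, where 50.0% and 26.5% of all genes were. The median log2 fold change of the 10 members was −0.09, and that of all genes tested was 0.20. Median-ratio scaling and quantile normalization brought the median of all genes to 0.13 and −0.03, so changes are best read against that median, and fold changes on this scale understate those of genes with low values.

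**Figure D2:**
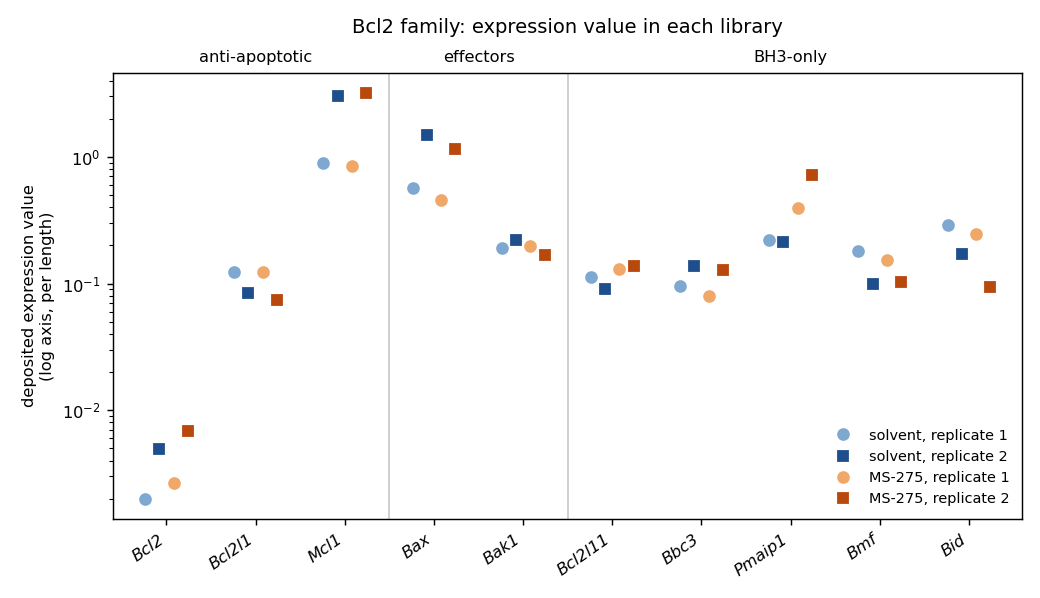
Deposited expression value of the 10 members in the 4 libraries, on a log axis, with solvent libraries in blue, MS-275 libraries in orange, circles for replicate 1 and squares for replicate 2. Pmaip1 (0.221 and 0.213 with solvent, 0.396 and 0.714 with MS-275) and Bcl2l11 are the members whose 2 conditions do not overlap, and for Mcl1 and Bax the replicates lie further apart than the conditions.

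On exon positions, limma-voom called 1 member higher (Pmaip1) and 0 lower without the block, where 14.6% of all 17015 genes tested were higher and 4.88% lower. With the block it called 2 higher (Pmaip1, Bcl2l11) and 1 lower (Bid), where 29.8% and 13.8% of all genes were. The members' median log2 fold change in this fit was −0.06 against 0.14 for all genes. The markers of feeder fibroblasts moved in the same comparison: with the block, 8 of 14 were higher and 0 lower on values, and 8 were higher and 1 lower on exon positions. Of the 12 ESC markers, 0 were higher and 4 lower on values in the same fit. The part of either list in the results of the members was not tested. In these bulk libraries, fewer cells of a type and less RNA per cell cannot be told apart.

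**Figure D3:**
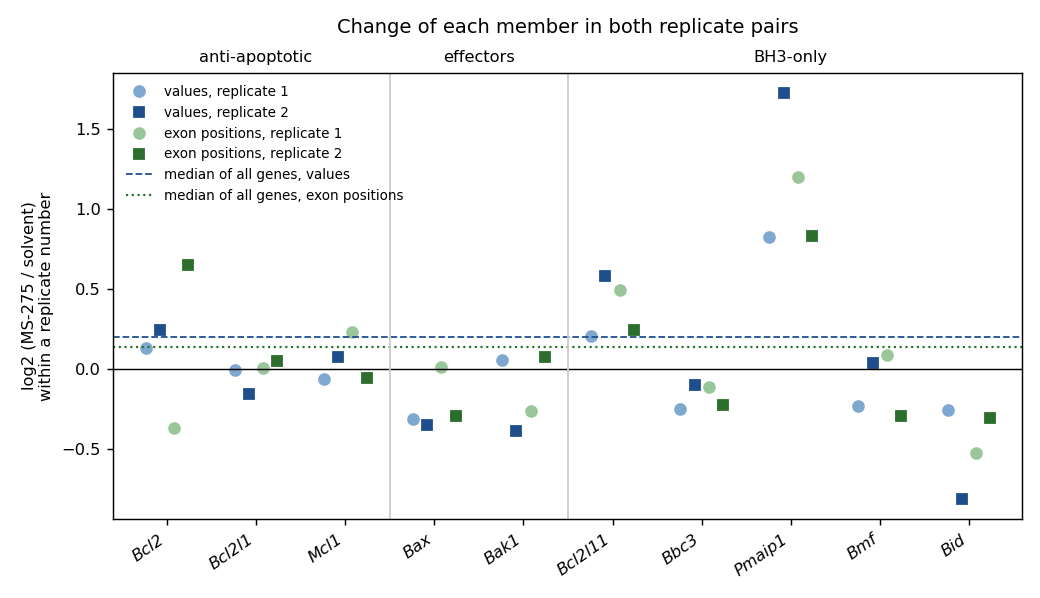
Log2 ratio of MS-275 to solvent for each member within each replicate number, from the deposited values with the pseudocount of 0.005 (blue) and from exon density (green), with the medians of all genes as broken lines. All 4 points of Pmaip1 lie between 0.82 and 1.72, the 4 points of Bid lie below 0, and the points of the other members are within 0.65 of 0.

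Of the protectors, Mcl1 was the most abundant member and was listed at 0.890 and 3.02 with solvent and at 0.852 and 3.19 with MS-275. The replicates of each condition were thus further apart than the conditions, whose log2 fold change was 0.01 ± 1.26 (SE, limma, adjusted p = 0.999), and with the block 0.01 ± 0.38 (adjusted p = 0.993). Exon positions of Mcl1 varied less between replicates. They numbered 2778 and 2458 with solvent and 2653 and 2634 with MS-275, over 3485 exon bases. Their log2 fold change was 0.09 ± 0.10 with the block (limma-voom, adjusted p = 0.507). Counting each position once can narrow differences for a gene this abundant, so the smaller spread is not firmer evidence of no change. Mcl1 lies on the plus strand at chr3:95462643-95467099 (mm9). Its sign changed with the scaling: median-ratio scaling gave −0.09 and quantile normalization −0.08. The first 200 bases of the gene held 40 and 22 positions with solvent and 61 and 53 with MS-275. Both MS-275 libraries were above both solvent libraries there (log2 fold change 0.70 ± 0.21 with the block, adjusted p = 0.0246, and 0.849 without it). The block fit of these start windows called 5.86% of 7139 genes higher and 5.97% lower, and called 3 of the 7 members tested higher (Mcl1, Bcl2l11, Pmaip1) and 2 lower (Bak1, Bbc3). The fit without the block called 0 members and 0% of all genes in either direction (182 higher and 229 lower at an unadjusted p below 0.05).

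Bcl2l1, which encodes Bcl-xL, was listed at 0.124 and 0.0836 with solvent and at 0.124 and 0.0745 with MS-275. The conditions overlapped, and neither values (log2 fold change −0.08 ± 0.23 with the block, adjusted p = 0.831) nor exon positions (335 and 298 against 273 and 345) differed beyond the spread. The gene lies on the minus strand at chr2:152593052-152657464. RefSeq gives it 3 starts. In the 200 bases after the second, 10 and 3 positions were found with solvent and 21 and 6 with MS-275, and after the first 9 and 3 with solvent and 4 and 3 with MS-275. Counts this small were not tested.

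Bcl2, the founding member, was close to the limit of detection. Its values were 0.00199 and 0.00497 with solvent and 0.00267 and 0.00681 with MS-275, around or under the pseudocount, and its mean lay at the 16.9th percentile of the genes tested. Only 35 and 8 distinct positions with solvent and 22 and 14 with MS-275 fell on 6633 exon bases, with 0 in the first 200 bases in every library. Of its coding exon bases, 4 positions were hit in 1 solvent library, 1 in an MS-275 library and 0 in the other libraries. The gene is on the minus strand at chr1:108434755-108610851, and part of its exon bases, shared with D630008O14Rik, was left out of the count. The log2 fold change of its values was 0.19 ± 0.24 with the block (adjusted p = 0.604) and turned to −0.26 after quantile normalization, so a change of Bcl2 was not detectable at this depth.

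Of the effectors, Bax was listed at 0.569 and 1.48 with solvent and at 0.457 and 1.16 with MS-275. It was lower with MS-275 in both pairs, to 0.802 and 0.785 of the solvent value, but the replicates differed more than that and the conditions overlapped (log2 fold change −0.33 ± 0.29 with the block, adjusted p = 0.422). Exon positions of Bax numbered 841 and 607 with solvent and 690 and 554 with MS-275 (log2 fold change −0.12 ± 0.14 with the block, adjusted p = 0.498). In its introns, 463 and 188 positions with solvent stood against 209 and 98 with MS-275, and the conditions overlapped. With the block this intron difference passed the test (log2 fold change −0.87 ± 0.22, adjusted p = 0.000403), but not without the block (adjusted p = 0.186). Of 13790 genes with intron counts, the block fit called 28.9% higher and 13.6% lower, and among the 8 members tested it called 1 higher (Pmaip1) and 1 lower (Bax), whereas the fit without the block called 0 of 8, against 11.1% higher and 2.89% lower of all genes. Bax is on the minus strand at chr7:52717065-52722268.

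Bak1 was listed at 0.189 and 0.222 with solvent and at 0.197 and 0.169 with MS-275, and the conditions overlapped (log2 fold change −0.16 ± 0.22 with the block, adjusted p = 0.626). Its exon positions, 455 and 324 with solvent and 308 and 381 with MS-275, overlapped as well. Bak1 lies on the minus strand at chr17:27156755-27165954, and its introns lie inside Ggnbp1 on the other strand, so no intron positions could be given to it. Reads of the 2 genes cannot be told apart without strand, and 2050 of 2407 exon bases were counted. Bases shared with another gene were not left out of the start windows. The window of the first 200 bases from the GENCODE start had 36 and 31 positions with solvent and 19 and 13 with MS-275 (adjusted p = 0.00432 with the block), but the same window from the RefSeq start, which lies further in, had 55 and 30 against 45 and 26, which overlap.

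Pmaip1 encodes Noxa, a small BH3-only protein that binds Mcl1. It was listed at 0.221 and 0.213 with solvent and at 0.396 and 0.714 with MS-275, or 0.217 ± 0.00612 and 0.555 ± 0.225 (mean ± SD, n = 2). The 2 solvent libraries lay close together and both MS-275 libraries were above them, by 1.79-fold and 3.35-fold within the pairs. The log2 fold change was 1.27 ± 0.45 without the block (95% interval 0.26 to 2.29, limma, adjusted p = 0.183) and 1.27 ± 0.26 with it (0.73 to 1.81, adjusted p = 0.00166). The unadjusted p without the block was 0.0191, and 91.9% of all genes tested had a log2 fold change as low as or lower than that of Pmaip1. Leaving out each library in turn gave log2 fold changes from 0.85 to 1.69.

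On exon positions the rise of Pmaip1 passed the test with and without the block. Over 2646 exon bases there were 678 and 579 distinct positions with solvent and 1263 and 1151 with MS-275. The log2 fold change was 0.999 ± 0.212 without the block (adjusted p = 0.0196) and 1.02 ± 0.13 with it (adjusted p = 9.75e-07). As exon density, the solvent mean was 35.1 ± 2.76 and the MS-275 mean 72.1 ± 18.4 (SD, n = 2 each).

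The rise of Pmaip1 was spread along the gene, which lies on the plus strand at chr18:66618258-66625204. Coding exon bases had 44 and 30 positions with solvent and 91 and 93 with MS-275, and noncoding exon bases 634 and 549 with solvent and 1172 and 1058 with MS-275. When the exons were cut into 20 bins of equal length, both MS-275 libraries were above both solvent libraries, per 1000000 exon positions, in 19 of them. In its introns there were 35 and 16 positions with solvent and 77 and 38 with MS-275, a log2 fold change of 1.36 ± 0.39 with the block (adjusted p = 0.00176) and 1.28 ± 0.53 without it (adjusted p = 0.139). In the first 200 bases the counts were 24 and 15 with solvent and 75 and 59 with MS-275 (log2 fold change 1.59 ± 0.25, adjusted p = 2.23e-05 with the block, and 0.712 without it).

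**Figure D4:**
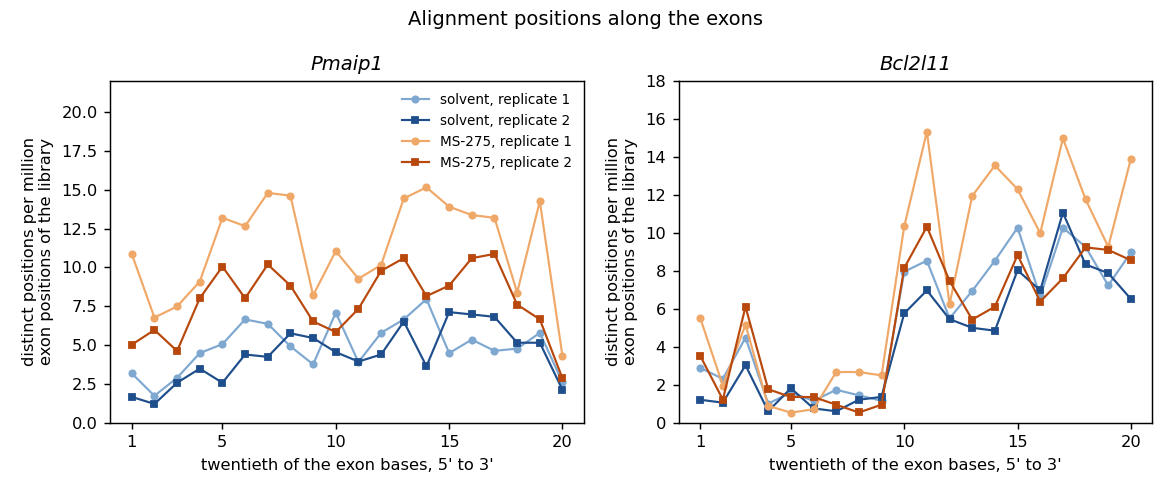
Distinct alignment positions of Pmaip1 (left) and Bcl2l11 (right) in 20 bins of equal length along their exon bases, from 5′ to 3′, per 1000000 exon positions of each library. For Pmaip1 both MS-275 libraries exceed both solvent libraries in 19 of 20 bins, and for Bcl2l11 in 6 of 20.

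Pmaip1 was also set against Mcl1, the protector that Noxa binds. The ratio of Pmaip1 to Mcl1 in exon density was 0.321 and 0.310 with solvent and 0.627 and 0.576 with MS-275, so it was 1.95-fold and 1.86-fold higher within the pairs. The ratio of the deposited values, which varied more between replicates, was 0.249 and 0.0703 with solvent and 0.465 and 0.224 with MS-275. Within pairs it was higher by 1.87-fold and 3.19-fold, but the conditions overlapped. For Bcl2l11 over Mcl1 the exon density ratio was 0.117 and 0.103 with solvent and 0.140 and 0.127 with MS-275, and for Bax over Mcl1 it was 0.788 and 0.643 against 0.677 and 0.547. Of these ratios from exon density, those with Pmaip1 and Bcl2l11 did not overlap between conditions, and that with Bax did. On values the Bcl2l11 ratio overlapped, at 0.126 and 0.0297 with solvent and 0.153 and 0.0429 with MS-275. The exon density of Bcl2l11 itself overlapped too. How often ratios of other gene pairs do not overlap was not counted. Counting each position once can hold down Mcl1, the most abundant member, and so raise these density ratios.

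Bcl2l11 encodes Bim, a BH3-only protein that can bind every protector of the family. It was listed at 0.112 and 0.0897 with solvent and at 0.130 and 0.137 with MS-275. The conditions did not overlap, with 1.16-fold and 1.52-fold higher values within the pairs, but the log2 fold change of 0.39 ± 0.23 did not pass with the block (adjusted p = 0.217) or without it (0.39 ± 0.38, adjusted p = 0.718). Exon positions were 746 and 584 with solvent and 854 and 773 with MS-275 over 8029 bases. As exon density, scaled to the library, the conditions overlapped (13.4 in solvent replicate 1, 13.1 in MS-275 replicate 2). The block fit on these positions passed (log2 fold change 0.38 ± 0.13, adjusted p = 0.0237) and the fit without it did not (adjusted p = 0.309). Leaving out each library kept the direction of the values, between 0.24 and 0.55 on the log2 scale. Introns had 152 and 88 positions with solvent and 170 and 130 with MS-275 (adjusted p = 0.0878 with the block).

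RefSeq gives Bcl2l11 2 starts with promoter windows. Both lie on the plus strand of chromosome 2, and the gene spans chr2:127951774-127988283. In the 200 bases after the first start, 12 and 7 positions were found with solvent and 26 and 24 with MS-275, and the conditions did not overlap. After the second start, which lies further downstream, there were 8 and 1 with solvent and 6 and 2 with MS-275. The first window, which is also the start of the gene model, had a log2 fold change of 1.17 ± 0.37 with the block (adjusted p = 0.0338) and did not pass without it (adjusted p = 0.849). No test compared the 2 starts. Their upstream bases are printed because positions were counted after each of them. Those of Mcl1 are printed too, as its start window also had more positions with MS-275. Those of Bid are added since it was the only member called lower on exon positions, in the fit with the block. Its start window was not called. Each run is the 250 bases before the RefSeq start, from 5′ to 3′ on the strand of the gene, taken from the RefSeq table for GRCm38.p6 and found at a single place of mm9, whose coordinates are given. Such windows were used for 9 members. Capitals mark the GC box, the letters GGGCGG or, on the other strand, CCGCCC, to which Sp1 family factors bind.
Bcl2l11, first start, chr2:127951524-127951773, plus strand: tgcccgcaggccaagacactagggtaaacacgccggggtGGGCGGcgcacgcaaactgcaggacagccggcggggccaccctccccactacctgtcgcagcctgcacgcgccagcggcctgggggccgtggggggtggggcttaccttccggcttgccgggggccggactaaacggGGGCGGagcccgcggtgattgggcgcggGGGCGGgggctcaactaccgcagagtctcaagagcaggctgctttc
Bcl2l11, second start, chr2:127953061-127953310, plus strand: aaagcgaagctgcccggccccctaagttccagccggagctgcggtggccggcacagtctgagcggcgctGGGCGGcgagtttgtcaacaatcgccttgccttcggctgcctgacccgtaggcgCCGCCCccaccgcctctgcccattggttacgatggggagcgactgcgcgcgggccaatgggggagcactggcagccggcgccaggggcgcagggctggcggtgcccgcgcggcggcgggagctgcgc
Mcl1, chr3:95462393-95462642, plus strand: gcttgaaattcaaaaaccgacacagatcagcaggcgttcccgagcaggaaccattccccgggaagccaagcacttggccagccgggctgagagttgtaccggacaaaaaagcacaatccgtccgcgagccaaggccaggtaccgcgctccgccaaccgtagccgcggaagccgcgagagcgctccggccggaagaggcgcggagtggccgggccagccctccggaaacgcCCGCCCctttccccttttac
Bid, chr6:120866843-120867092, minus strand: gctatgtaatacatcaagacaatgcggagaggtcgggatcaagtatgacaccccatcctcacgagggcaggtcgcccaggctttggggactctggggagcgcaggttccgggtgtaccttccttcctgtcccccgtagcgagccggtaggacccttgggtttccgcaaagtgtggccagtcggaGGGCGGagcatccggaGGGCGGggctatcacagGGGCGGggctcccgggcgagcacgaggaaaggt

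The GC box occurred 3 times before the first start of Bcl2l11, 2 times before the second, 1 time before Mcl1 and 3 times before Bid. It was found in 32.7% of 32851 RefSeq promoter windows searched in the same way. All 4 windows were rich in G and C, with 72.0% and 73.2% before the 2 Bcl2l11 starts, 64.4% before Mcl1 and 63.6% before Bid, where the median of all windows was 52.4%. They held 24, 30, 26 and 18 CpG, against a median of 6. None of the 4 held the letters TATAAA, which 12.4% of all windows held on either strand. Matches in these windows are descriptions of the letters only. Among the members not printed, the window of Bcl2, hardly detected in any library, had 7 GC boxes and 36 CpG. The window of Bak1, which was detected in every library, had 0 GC boxes and 8 CpG. A relation between these letters and the level of a gene was not tested.

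Bid, a BH3-only protein that links death receptors to mitochondria after cleavage by caspase 8, was listed at 0.292 and 0.170 with solvent and at 0.244 and 0.0946 with MS-275. It was lower in both pairs, at 0.835 and 0.558 of the solvent value, while the conditions overlapped. The log2 fold change was −0.53 ± 0.50 without the block (adjusted p = 0.705) and −0.53 ± 0.23 with it (adjusted p = 0.0952), and the block fit passed only after median-ratio scaling (adjusted p = 0.0392) or quantile normalization (adjusted p = 0.0279). On exon positions, 468 and 580 with solvent against 264 and 523 with MS-275, the block fit passed as well (log2 fold change −0.40 ± 0.15, adjusted p = 0.0355), and the fit without it did not (adjusted p = 0.325). Without MS-275 replicate 2 the log2 fold change of the values turned to 0.13. Bid is on the minus strand at chr6:120841948-120866871, and 2922 of its 3550 exon bases were counted, the rest being shared with the neighbouring Bcl2l13. The first 200 bases after its RefSeq start held 11 and 7 positions with solvent and 9 and 8 with MS-275, which overlap.

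Bbc3, or Puma, a BH3-only target of p53, was listed at 0.0952 and 0.136 with solvent and at 0.0793 and 0.127 with MS-275. It was lower in both pairs, with overlapping conditions (log2 fold change −0.17 ± 0.23 with the block, adjusted p = 0.611), and its exon positions, 354 and 172 against 266 and 164, did not pass either (adjusted p = 0.520). Its start window was lower with MS-275, with 50 and 27 positions against 34 and 18, and passed with the block (log2 fold change −0.70 ± 0.24, adjusted p = 0.0464) but not without it (adjusted p = 0.849). The libraries overlapped there. Bbc3 is on the plus strand at chr7:16894965-16903554.

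Bmf, a BH3-only protein tied to the cytoskeleton, was listed at 0.180 and 0.0993 with solvent and at 0.152 and 0.102 with MS-275. Its conditions overlapped in values (log2 fold change −0.10 ± 0.22 with the block, adjusted p = 0.786) and the difference in exon positions, 664 and 777 against 574 and 708, did not pass (adjusted p = 0.569). It lies on the minus strand at chr2:118354493-118375423. Its introns went the other way, with 53 and 46 positions with solvent and 82 and 57 with MS-275 (limma-voom with the block, log2 fold change 0.64 ± 0.33, adjusted p = 0.102). The mean values of the 5 BH3-only genes thus did not share a direction. They were higher with MS-275 for Pmaip1 and Bcl2l11 and lower for Bbc3, Bmf and Bid. Of the lower ones, Bid and, for its start window, Bbc3 passed a test under some setting, and Bmf passed none.

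The 6 other lists of apoptosis genes were compared on the same values. The counts below are from the fit with the block, which called 21.0% of all genes higher and 6.46% lower, and no list was tested as a set. Of the 11 other Bcl2 family genes tested, 3 were higher and 2 lower. Bad, a BH3-only gene, had the largest rise of that list among genes with a mean of at least 0.01, from 0.0517 and 0.0635 to 0.126 and 0.165 (log2 fold change 1.26 ± 0.23, adjusted p = 0.000923). Hrk, also BH3-only, had the largest fall, from 0.0973 and 0.0506 to 0.0150 and 0.00577 (−2.36 ± 0.30, adjusted p = 4.13e-05), with 468 and 512 exon positions against 53 and 88. Hrk also passed on exon positions without the block (adjusted p = 0.00547).

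Of the 19 genes in the list of p53 and its targets, 1 was higher and 7 were lower with the block, beside 21.0% and 6.46% of all genes, and their median log2 fold change was −0.39. On exon positions with the block, 4 were higher and 10 lower, beside 29.8% and 13.8% of all genes. Zmat3, an RNA-binding p53 target, fell from 0.356 and 0.305 to 0.197 and 0.122 (adjusted p = 0.00253), and Sesn1, a stress sensor, rose from 0.112 and 0.0889 to 0.180 and 0.180 (adjusted p = 0.0125). Trp53 itself, named here after its values were seen because Pmaip1, Bbc3 and Bax are known targets, was lower, at 0.528 and 1.16 with solvent and 0.371 and 0.449 with MS-275 (adjusted p = 0.0206).

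The counts of the next 4 lists stand beside 21.0% of all genes higher and 6.46% lower in the same block fit. In the list of the apoptosome, caspases and mitochondrial death proteins, 5 of 14 genes were higher and 2 lower, with Endog, a mitochondrial nuclease, at the top (log2 fold change 0.99, adjusted p = 0.00407). Of 8 inhibitors of apoptosis tested, 1 was higher and 3 lower. They ran from Naip5 (1.99, adjusted p = 0.00016), whose reads may be shared with near-identical Naip copies, to Birc7 (−1.06, adjusted p = 0.0134). The death receptor list had 2 of 9 higher and 1 lower, from the adaptor Tradd (1.37, adjusted p = 0.0029) to Cflar, the inhibitor of caspase 8 activation (−1.05, adjusted p = 0.0155). The last list was drawn up as regulators of BH3-only genes, a role that is not claimed here for Chac1. Of its 13 genes, 2 were higher and 1 lower, from Jun (1.31, adjusted p = 0.00162) to Chac1 (−1.36, adjusted p = 0.002). Both moved with single libraries: Jun was at 0.16 without solvent replicate 1, 2.46 without solvent replicate 2, 2.55 without MS-275 replicate 1 and 0.071 without MS-275 replicate 2, and its conditions overlapped in value. Chac1 was at −2.50 without MS-275 replicate 1 and −0.23 without MS-275 replicate 2, and its conditions overlapped too. Birc7 was at −0.70 without MS-275 replicate 2. Without the block and under the filter used throughout, 0 genes of any of these lists passed on values, and between 0 and 3 per list had an unadjusted p below 0.05. Under the filter on a mean value of at least 0.01, 1 inhibitor of apoptosis was higher, as were 466 of all 14740 genes tested there. On exon positions without the block, 0 to 2 per list were higher and 0 to 4 lower, beside 14.6% and 4.88% of all genes.

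**Figure D5:**
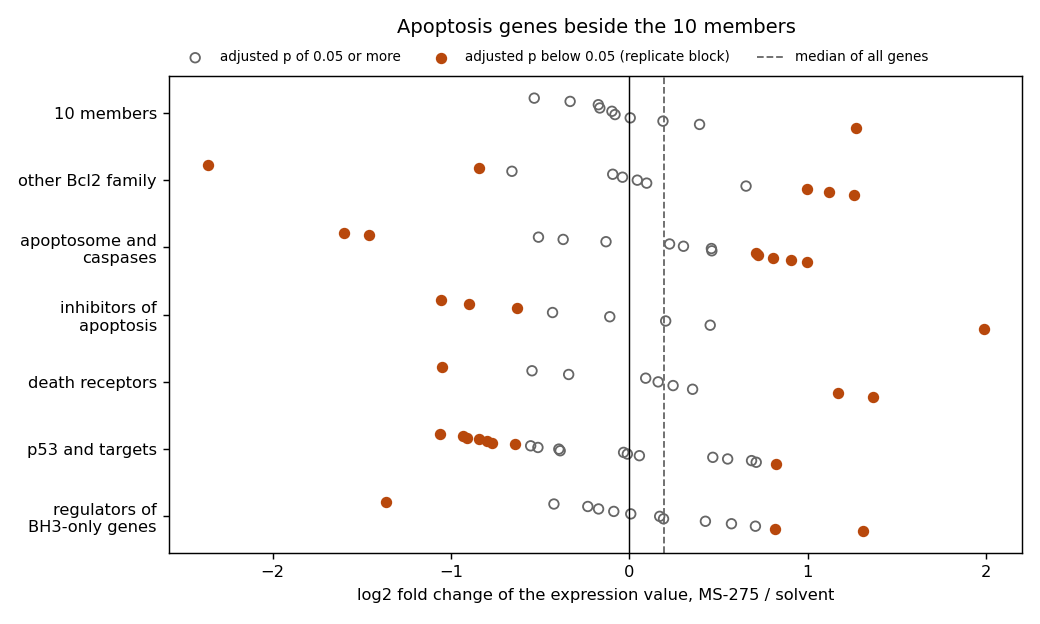
Log2 fold change of the deposited value between MS-275 and solvent for the 10 members and the tested genes of 6 other apoptosis lists, with 1 point per gene, filled where limma with the replicate block gave an adjusted p below 0.05. Of the members Pmaip1 alone is filled, and Hrk at −2.36 and Naip5 at 1.99 are the outermost points.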

How the data were processed

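As deposited by the authors, the reads, mapped to mm9, had been converted with Genomatix software to a normalized expression signal per gene. The aligner, its version and the formula are not given in the sources used here. Tables of ratios between conditions, made by the authors, were not used. All 10 members, and for each other list the tested gene with the largest rise and the largest fall at a mean value of at least 0.01, were named, except 1 list gene that is not reported here, and the members and lists were chosen with earlier results of these data known.

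Values were compared with limma 3.58.1 (R 4.3.3; lmFit and eBayes with a trend on log2(value + 0.005), genes at 0.001 or more in at least 2 libraries, Benjamini-Hochberg adjustment over all genes, two-sided). Distinct positions, each the middle of an alignment of 35 bases, were counted with Python 3.11.15 over GENCODE M1 exons on mm9, leaving out bases shared by genes, and compared with limma-voom (at least 10 positions in at least 2 libraries). Intron and start-window counts were added after the data had been seen. Both procedures were tested on simulated data. Same-numbered libraries were treated as pairs in the block fits because a table header marks the replicate 1 library of each condition, but no other, as old, and their deviations from the group means correlated at 0.764 (values) and 0.615 (exon positions). Genes absent from the tables were not used here.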

Additional observations from a re-analysis of the deposited data

How the results depend on the processing

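The replicate number was fitted as a block because same-numbered libraries deviated alike from their group means (correlation 0.764 on values and 0.615 on exon positions). No sample label states that same-numbered libraries were prepared together. With the replicate block, 1 member (Pmaip1) was higher with MS-275, beside 21.0% of all genes, where the fit without it had 0. That count was also 1 with the block and median-ratio scaling (20.8% of all genes higher) or quantile normalization (14.4%). With the block and a pseudocount of 0.001 or 0.02 it was 1 as well, beside 4216 and 3790 of 20336 genes. The count was 1 by limma-voom on distinct positions, beside 14.6% of all genes. It was 2 (Pmaip1, Bcl2l11) when the block was added there, beside 29.8%. The count of members lower with MS-275 was 0, and 1 (Bid) in 3 fits with the block. These were median-ratio scaling (9.08% of all genes lower), quantile normalization (14.6%) and limma-voom on distinct positions (13.8%). Without the block, both counts stayed at 0 under the other pseudocounts, filters, scalings, the fit without a trend, the shorter tables and the rule of 2-fold in both pairs, and with each library left out, where limma took the lone library to vary like the others. The causes of the differences between settings were not tested. Under the filter on a mean value of at least 0.01, without the block, 466 of 14740 genes were higher and 65 lower.

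Among log2 fold changes of the values, those of 7 members changed sign under some setting, and none of these changes passed the threshold there. Bcl2 (0.19) was −0.26 after quantile normalization, with or without the block, and −0.036 on distinct positions with the block. Bcl2l1 (−0.08) was 0.029 on distinct positions without the block and 0.032 with it. Mcl1 (0.01) was −0.089 under median-ratio scaling and −0.083 under quantile normalization, whether or not the block was fitted. Leaving out 1 library at a time gave −0.12 to 0.50 for Bcl2, −0.43 to 0.27 for Bcl2l1, −0.94 to 0.95 for Mcl1, −1.01 to 0.35 for Bax, −0.50 to 0.15 for Bbc3, −0.51 to 0.31 for Bmf and −1.19 to 0.13 for Bid. Pmaip1, Bcl2l11 and Bak1 kept their sign under all settings run, Pmaip1 between 0.85 and 1.69 and Bcl2l11 between 0.24 and 0.55. The adjusted p of Pmaip1 ran from 0.0196 to 0.380 without the block and from 9.75e-07 to 0.00425 with it.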
